A study of Mus musculus with 36 samples.

Results

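The levels of 9 genes that make hemoglobin or move iron and haem were followed through the unmyelinated optic nerve head (UON), the myelinated optic nerve (MON) and the retina of mice. They were 9 of the 55487 genes in the count table. The 4 globin genes Hba-a1, Hba-a2, Hbb-bs and Hbb-bt were chosen by their higher level in UON after optic nerve crush, and Alas2, Hmox1, Slc40a1, Slc39a14 and Tfrc were taken with them as named genes of haem and iron handling. The levels of the 9 genes in UON after crush are therefore given as a description, with no p-value or call. All 9 passed the filter on low counts in every comparison.

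RNA-seq was done on C57BL/6 mice aged 2 to 4 months. The 36 libraries formed 18 groups, which were the 3 tissues in naive mice, in mice 3 days and 2 weeks after optic nerve crush, and in mice 3 days, 2 weeks and 6 weeks after injection of microbeads into the anterior chamber of 1 eye, the model labelled glaucoma. Each group held 1 female and 1 male library, and each library pooled equal RNA from 2 mice, so that n = 2 in every group and the 4 mice behind a group could not be told apart. The same mice gave all 3 tissues, and the naive libraries of a tissue served as controls for both crush and beads. The controls are labelled naive, and no group analysed here is labelled as sham surgery or a control injection.

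Hemoglobin is a tetramer of α and β globin chains that each hold a haem group with an iron atom. Globin mRNA is most abundant in developing red cells and persists in reticulocytes, and low levels have been described in some neurons and glia. Alas2 encodes the erythroid form of the first enzyme of haem synthesis. Hmox1, an inducible enzyme, opens the haem ring and frees its iron, which ferritin stores and Slc40a1 (ferroportin) exports. Tfrc, the transferrin receptor, and Slc39a14, a transporter of zinc, manganese and iron not bound to transferrin, bring metal into the cell.

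The promoters of the globins and Alas2 are shown because these 5 genes varied together across libraries that include those that chose the globins. They are the 120 bases before the transcription start given by RefSeq (GRCm38.p6), written 5′ to 3′ on the strand of the gene, and capitals mark 4 short motifs searched on both strands. They are a CCAAT box, a CACCC box such as Klf1 binds, the letters TATAA of a TATA box and the letters GATAA of the site that Gata1 binds, and adjoining matches run together. The promoters lie at chr11:32283552-32283671 (plus strand), chr7:103827929-103828048 and chr7:103813924-103814043 (both minus strand) and chrX:150547297-150547416 (plus strand), in the order printed. The gene coordinates given further below are those of the Gencode annotation, in which these genes start further upstream than in RefSeq. By those coordinates the Hba-a1 and Hbb-bs windows lie within the gene, and the Hbb-bt and Alas2 windows overlap it in part.
Hba-a1: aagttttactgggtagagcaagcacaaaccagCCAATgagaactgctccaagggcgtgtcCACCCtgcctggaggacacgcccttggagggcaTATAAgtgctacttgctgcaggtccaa
Hbb-bs: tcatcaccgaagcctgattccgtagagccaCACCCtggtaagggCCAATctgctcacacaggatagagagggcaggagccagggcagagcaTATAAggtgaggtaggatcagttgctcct
Hbb-bt: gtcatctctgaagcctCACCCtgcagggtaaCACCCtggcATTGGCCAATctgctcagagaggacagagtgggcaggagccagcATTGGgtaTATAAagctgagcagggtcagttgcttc
Alas2: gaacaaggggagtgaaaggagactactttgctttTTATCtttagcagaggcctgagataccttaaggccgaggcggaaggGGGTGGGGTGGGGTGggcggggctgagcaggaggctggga
The promoter of Hba-a2 matched that of Hba-a1 at all of 117 bases compared once shifted by 3 bases, whereas the Hbb-bs and Hbb-bt promoters differed at 31 of 119 bases. CACCC was found in all 5 of these promoters, CCAAT and TATAA in the 4 globin promoters, and GATAA only in that of Alas2. Searched on both strands in the same way, CACCC was in 31.7% of 32851 mouse promoters, CCAAT in 21.3%, TATAA in 11.8% and GATAA in 10.5%. These matches are letters in a window and were not linked to any reading of a factor.

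The second set shows the iron responsive elements, hairpins through which iron regulatory proteins block translation from a 5′ UTR or protect a transcript from decay in a 3′ UTR. They were found by a search of GRCm38 transcripts for CAGTG as the start of a 6-base loop, on a stem of 5 paired bases with an unpaired c at its 5′ end, and capitals mark the loop.
Alas2, 5′ UTR, chrX:150547464-150547480: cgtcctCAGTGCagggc
Slc40a1, 5′ UTR, chr1:45925471-45925487, minus strand: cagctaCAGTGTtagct
Tfrc, 3′ UTR, chr16:32631225-32631241: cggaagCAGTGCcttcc
Tfrc, 3′ UTR, chr16:32631604-32631620: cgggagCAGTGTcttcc
Tfrc, 3′ UTR, chr16:32631669-32631685: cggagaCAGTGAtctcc
Tfrc, 3′ UTR, chr16:32631716-32631732: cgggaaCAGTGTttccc
Fth1, 5′ UTR, chr19:9982738-9982754: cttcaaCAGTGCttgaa
Ftl1, 5′ UTR, chr7:45459785-45459801, minus strand: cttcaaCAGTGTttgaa
The same search found a match in the 5′ UTR of 0.138% and in the 3′ UTR of 0.64% of 22500 coding genes. No match was found in the UTRs of the globins, Hmox1 or Slc39a14. Fth1 and Ftl1, the ferritin chains, are not among the 9 genes and are given because their levels are described beside those of Hmox1.

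The paired globin genes are near copies of each other. The coding sequences of Hba-a1 (chr11:32283511-32284465) and Hba-a2 (chr11:32296489-32297298) differed at 1 of 429 bases, and those of Hbb-bs (chr7:103826534-103828096) and Hbb-bt (chr7:103812524-103813996) at 1 of 444. Of all stretches of 150 bases in the Hba-a1 and Hba-a2 transcripts, 48.4% and 65.7% also occurred in the other copy, and for Hbb-bs and Hbb-bt it was 58.7% and 50.7%. How a read was split within a pair is therefore uncertain, and the sum of the 4 genes is used where a single level is needed. The other genes lie at chrX:150547375-150570638 (Alas2), chr8:75093621-75100589 (Hmox1), chr1:45908068-45926523 (Slc40a1), chr14:70303469-70351425 (Slc39a14) and chr16:32608920-32632794 (Tfrc), all on GRCm38.

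The libraries held 16158723 to 78054205 counts, and levels are given as CPM, in which a gene's count is scaled to the size of its library, after TMM scaling across all 36 libraries. The scarcest reading of any of the 9 genes was 25 counts, for Alas2 in the male UON pool 2 weeks after beads. Summed oligodendrocyte markers were 15380 to 63150 CPM in MON, 1370 to 15340 in UON and 35.2 to 66.7 in retina, and summed photoreceptor markers were 52540 to 67120 CPM in retina and at most 319 in nerve. A tissue can change level through the number of its cells of a type or through RNA per cell, and bulk libraries cannot tell these apart.

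A gene was called changed when edgeR gave an adjusted p under 0.05 and a change of more than 2-fold. In naive tissue 2 of the 9 genes were called between UON and MON, where 9.63% of all genes tested were called, 6 of 9 between UON and retina (31.7% of all genes) and 6 of 9 between MON and retina (27.6%). The calls against retina included the globins, whose near copies were counted as separate genes. The counts with naive UON share its libraries with the contrast that chose the globins, so they are no independent result for these. In MON 1 of 9 was called 3 days after crush, against 4.26% of all genes, and 2 of 9 at 2 weeks, against 2.72%. DESeq2, the tool of the study's own methods, called 3 of 9 in MON at 3 days, against 12.3% of all genes.

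In the retina after crush edgeR called 0 of 9 genes at both times, where it called 0.0221% and 0.313% of all genes. At 3 days 1 of the 9 had an unadjusted p under 0.05, and DESeq2 called 1 of 9 against 0.633% of genes, while at 2 weeks both counts were 0. Over all genes 1437 of 22671 had an unadjusted p under 0.05 at 3 days and 2037 of 22671 at 2 weeks. In UON after crush, the contrast that chose the globins, edgeR called 0.00% of all genes at 3 days and 0.0281% at 2 weeks, and DESeq2 called 2.66% at 2 weeks. No count of the 9 genes is given for it.

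After beads edgeR called 0 of 9 genes in each of the 9 groups. It called 0.00% of all genes in the 3 UON and the 3 MON comparisons and in the retina at 2 weeks, 0.00429% in the retina at 3 days and 0.00858% at 6 weeks. At an unadjusted p under 0.05 there were 1, 2 and 4 of the 9 genes in UON at 3 days, 2 weeks and 6 weeks, 1, 7 and 0 in MON, and 2, 1 and 1 in retina. Over all genes such a p was found for 868, 801 and 451 of 22438 in UON at these times. It was found for 1854, 2017 and 1127 of 22960 in MON, and for 1418, 1465 and 1321 of 23301 in retina. DESeq2 called 1 of 9, Slc39a14, in MON at 2 weeks, where it called 2.65% of all genes, and 0 of 9 in the other 8.

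**Figure D1:**
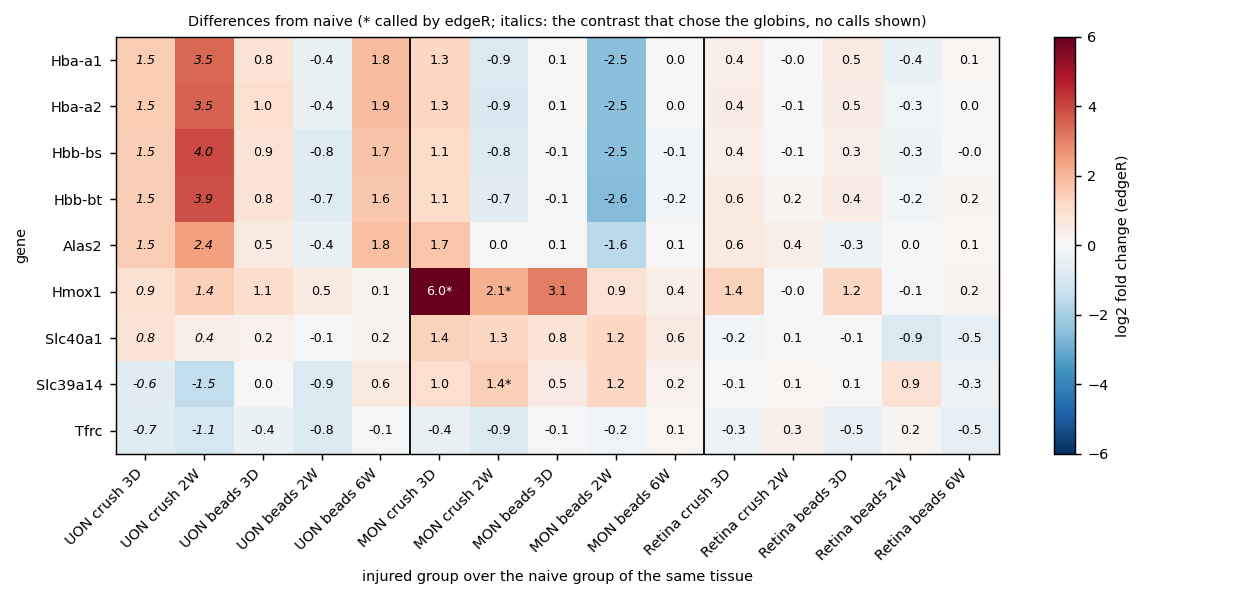
Log2 fold change over naive of the same tissue (edgeR) for the 9 genes (rows) in 15 comparisons (columns), with red for higher and blue for lower than naive and an asterisk for a call. The largest value is Hmox1 in MON 3 days after crush at 5.97, the 3 asterisks are all in MON after crush, and the UON crush columns in italics, the contrast that chose the globins, show no calls.

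In naive UON and MON the 4 globins were the most abundant of the 9 genes per transcript length, and in naive retina Tfrc, at 18.4 and 19.6 FPKM in the female and male pools, lay within the range of Hbb-bt, at 22.3 and 13.3. In the deposited FPKM, which divide by length, Hba-a1 was 102 in the female and 227 in the male naive UON pool, 227 and 213 in naive MON, and 67.4 and 46.7 in naive retina. Hba-a2 was 102 and 237 FPKM in UON, 235 and 209.8 in MON, and 68.9 and 48.6 in retina. The Hba-a1 and Hba-a2 ranges overlapped in each tissue, whereas both Hbb-bs pools exceeded both Hbb-bt pools in MON and in retina but not in UON. Alas2 and Slc40a1 were the 2 lowest of the 9 in every tissue, with FPKM between 1.19 and 3.27, and their ranges overlapped in each.

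On the CPM scale naive nerve held more globin than naive retina. The 4 genes summed to 231 CPM in the female and 539.7 in the male UON pool, 586 and 469.9 in MON, and 132 and 87.7 in retina. Both pools of UON and of MON were above both of retina, and the UON and MON ranges overlapped. The log2 difference of MON over retina was 2.40 ± 0.42 (SE) for Hba-a1, 2.38 for Hba-a2, 2.12 for Hbb-bs and 2.28 for Hbb-bt, with adjusted p of 0.00465 to 0.00787 (edgeR). For UON over retina it was 1.89 ± 0.42 for Hba-a1, 1.89 for Hba-a2, 1.57 for Hbb-bs and 1.79 for Hbb-bt, with adjusted p of 0.0123 to 0.0249. Without the male naive UON pool none of the 4 was called in UON over retina, Hba-a1 then being 1.05 (adjusted p = 0.0506, edgeR), and without the female naive MON pool Hbb-bs and Hbb-bt were not called in MON over retina (adjusted p = 0.0588 and 0.0508). With all 36 libraries in 1 fit Hbb-bs and Hbb-bt were not called in UON over retina (adjusted p = 0.116 and 0.0825), nor was Hbb-bs on FPKM with limma (adjusted p = 0.0509). Between UON and MON the 4 globins differed by -0.49 to -0.55 and were not called. Without the male naive UON pool the UON over MON difference was -1.39 for Hba-a1, -1.42 for Hba-a2 and -1.40 for Hbb-bs. All comparisons with naive UON share its libraries with the contrast that chose the globins.

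Slc39a14 and Tfrc ran in opposite order between the nerve regions. Slc39a14 was 112 and 150 CPM in the female and male naive UON pools, 47.6 and 53.9 in MON and 8.43 and 7.77 in retina, so that no ranges overlapped. Its log2 difference was 1.33 ± 0.22 for UON over MON (adjusted p = 0.0118), 4.04 ± 0.25 for UON over retina (adjusted p = 4.05e-05) and 2.70 ± 0.23 for MON over retina (adjusted p = 0.000172, edgeR). Tfrc was 37.6 and 32.5 CPM in UON, 99.0 and 73.9 in MON and 79.0 and 73.6 in retina. It was lower in UON, by -1.32 ± 0.20 against MON (adjusted p = 0.0084) and by -1.09 ± 0.20 against retina (adjusted p = 0.0049, edgeR), and MON and retina overlapped. Without the male naive UON pool the UON over MON calls of both genes were lost (adjusted p = 0.0783 for Slc39a14 and 0.0525 for Tfrc), as was that of Tfrc over retina (adjusted p = 0.0607), which was also not called without the male naive retina pool (log2 -0.99).

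Hmox1 was 16.6 and 11.6 CPM in naive MON, 11.97 and 9.51 in UON and 6.87 and 4.68 in retina. Its difference of MON over retina was 1.35 ± 0.33 (adjusted p = 0.0203, edgeR), and it was not called when any 1 of the 4 libraries was left out (adjusted p = 0.0532 to 0.134), with all 36 libraries in 1 fit (adjusted p = 0.157) or on FPKM with limma, where the change was 0.74. Alas2 (2.04 to 8.50 CPM) and Slc40a1 (4.06 to 12.1 CPM) were not called between any naive regions. For both, the female and male pools of UON and of MON lay further apart than the group means.

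In UON after crush, the contrast that chose them, the globins stood above naive in both pools. The summed level was 589 CPM in the female and 1610 in the male pool at 3 days, and 4708 and 3630 CPM at 2 weeks. Both pools lay above both naive pools at both times, but at 3 days the female pool exceeded the male naive pool by only 1.09 times. The mean at 2 weeks was 4169 ± 763 CPM (SD, n = 2) against 385 ± 218 in naive UON, which is 10.8 times as much, and at 3 days it was 2.85 times as much. Globins then took 0.446% and 0.332% of all counts at 2 weeks, against 0.0213% and 0.048% in naive UON.

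Each globin shared that order in UON. Hba-a1 was 87.5 and 206 CPM in the naive female and male pools, 226 and 620.3 at 3 days and 1490 and 1305 at 2 weeks. Hbb-bs was 46.8 and 106 CPM in naive, 109.9 and 322 at 3 days and 1289 and 769 at 2 weeks. The ratio of group means at 2 weeks was 9.51 for Hba-a1, 10.02 for Hba-a2, 13.5 for Hbb-bs and 12.9 for Hbb-bt.

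**Figure D2:**
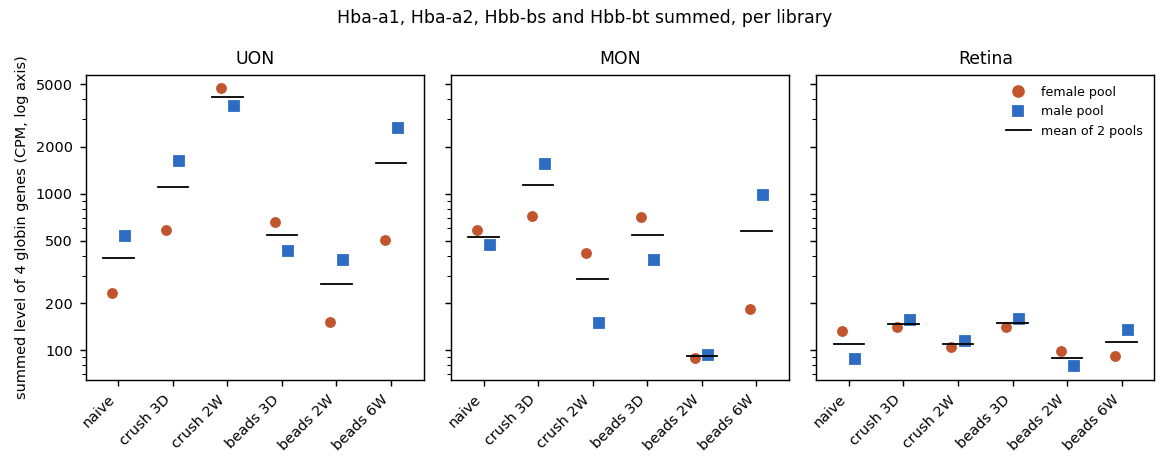
Summed CPM of the 4 globin genes (log axis) in each library, by tissue and condition, with 1 point for the female pool, 1 for the male pool and a line at their mean. UON 2 weeks after crush is highest at 3630 and 4708 CPM, MON 2 weeks after beads is at 89.3 and 92.8 CPM, and retina stays between 79.1 and 157 CPM.

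MON did not follow UON at the later time. At 3 days after crush the summed globins of MON were 718 CPM in the female and 1540 in the male pool, both above naive (586 and 469.9). At 2 weeks they were 419.5 and 149 CPM, both below naive. The log2 change of the 4 genes over naive ran from 1.11 to 1.29 at 3 days and from -0.69 to -0.89 at 2 weeks, none of them called (adjusted p = 0.205 to 0.255 and 0.495 to 0.541, edgeR). With no filter on low counts all 4 were called at 3 days (1.15 to 1.33). Both results also leaned on 1 pool. Without the female pool at 3 days all 4 globins were called higher (log2 1.73 to 2.17), and without the female pool at 2 weeks all 4 were called lower (-1.54 to -2.04).

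In retina the sum stayed between 79.1 and 157 CPM in all 12 libraries. It was 141 and 155 CPM at 3 days after crush and 104 and 114 at 2 weeks, against 132 and 87.7 in naive retina. The log2 change of Hba-a1 was 0.39 ± 0.21 at 3 days and -0.03 ± 0.21 at 2 weeks. No globin was called, and the interaction test of the response in MON against that in retina gave adjusted p of 0.62 to 0.778 at 3 days and 0.601 to 0.696 at 2 weeks (edgeR).

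After beads the globins varied most between pools of 1 group. In UON the sum was 659.5 and 430.2 CPM in the female and male pools at 3 days, 152 and 379 at 2 weeks, and 507 and 2620 at 6 weeks, against 231 and 539.7 in naive UON. Only the male pool at 6 weeks lay well outside the naive range, and all 3 times overlapped naive. The log2 change of Hba-a1 at 6 weeks was 1.84 ± 0.60 with an adjusted p of 1 (unadjusted p = 0.0167, edgeR). These comparisons share the naive UON libraries with the contrast that chose the globins.

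In MON the sum was 707 and 375 CPM at 3 days after beads, 89.3 and 92.8 at 2 weeks, and 184 and 977 at 6 weeks. At 2 weeks both pools lay below both naive pools (586 and 469.9) and close to each other, with a mean 5.8 times below naive. The log2 change was -2.53 ± 0.65 for Hba-a1, -2.50 for Hba-a2, -2.53 for Hbb-bs and -2.61 for Hbb-bt, yet none was called (adjusted p = 0.352 to 0.446 with edgeR and 0.077 to 0.223 with DESeq2). Retina ranged from 79.1 to 157 CPM after beads, with no call. In the interaction test of UON against MON after beads, 0 of 9 genes were called at 3 days, 2 weeks or 6 weeks by edgeR (0.00% of all genes at each time), 0, 1 and 0 had an unadjusted p under 0.05, and DESeq2 called 0, 1 and 0, against 0.603% of all genes at 2 weeks. Over all genes 1511, 1595 and 799 of 25807 had an unadjusted p under 0.05 in that test.

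The ratio of α to β globin was narrower than the levels. The α sum over the β sum of CPM had a median of 2.12 over 36 libraries and ran from 1.41 to 3.24. The lowest ratio, 1.41, was in the female UON pool 2 weeks after crush, the library with the most globin, whereas the male pool of that group was at 2.07. Within the pairs, Hba-a1 over Hba-a2 ran from 1.10 to 1.37 and Hbb-bs over Hbb-bt from 1.58 to 2.22, which carries the uncertainty of near copies.

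Alas2, which supplies haem to red cell precursors, moved with the globins at a far lower level. In UON it was 2.04 and 8.50 CPM in naive, 10.1 and 15.99 at 3 days after crush, and 26.5 and 20.1 at 2 weeks, all above naive. In MON it was 7.49 and 4.00 CPM in naive and 12.1 and 19.9 at 3 days after crush. That MON change was 1.67 ± 0.52 and was not called by edgeR (adjusted p = 0.123), while DESeq2 called it (adjusted p = 0.0288). By edgeR it was called without the female 3-day pool (2.41, adjusted p = 0.00686) and with no filter on low counts (1.70), and it ran from 0.78 to 2.41 with 1 library left out. At 2 weeks after crush MON was at 7.42 and 3.53 CPM, inside or just below naive, and at 2 weeks after beads it was at 2.31 and 1.39. The highest reading of any library was 33.2 CPM in the male UON pool 6 weeks after beads, the pool with the high globin sum. Over 36 libraries, with each gene centred within tissue, the Pearson correlation with the summed globins was 0.86 for Alas2, 0.46 for Hmox1, 0.02 for Slc40a1, -0.28 for Slc39a14 and -0.19 for Tfrc. These share libraries and depth, include the UON crush libraries that chose the globins, and are given as a description.

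Of 18528 other genes ranked in that way, the 8 most like the globins were Cct2 (0.81), a subunit of the chaperonin TRiC, Psmb5 (0.78) and Psmb7 (0.76), catalytic subunits of the proteasome, Itpa (0.77), Cenpx (0.77), Slc35b1 (0.76), Atf4 (0.75), a transcription factor of the integrated stress response, and Pcna (0.75), the DNA replication clamp. Within retina alone the correlation of Cct2 with the globin sum was 0.64 and that of Cenpx 0.19. Only genes with a mean of at least 1 CPM in 1 or more tissues were ranked, and the UON crush libraries that chose the globins were included. Most of the 14 erythroid markers lay near 0, so their absence from these 8 genes says nothing of whether they vary with the globins.

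Defining markers of red cell precursors were at or near 0. Gata1, a transcription factor of the red cell lineage, was at 0 in 25 of 36 libraries and at most 0.361 CPM, and Klf1, which acts with it, was at most 0.798 CPM. Slc4a1, the anion exchanger of red cells, reached 4.71 CPM in the male UON pool 2 weeks after crush and at most 1.34 CPM elsewhere in nerve. Without Tent5c and Sptb, its 2 most abundant genes, set aside after their values were seen, the erythroid list of the remaining 12 genes summed to 2.04 and 4.71 CPM in UON 2 weeks after crush, against 2.96 and 1.06 in naive UON. Embryonic globins were scarce too, with Hba-x, Hbb-bh1 and Hbb-bh2 at 0 in all 36 libraries and Hbb-y at most 2.45 CPM.

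Markers of platelets and myeloid cells moved with the globins in some groups and not in others. The platelet list of 10 genes summed to 16.2 and 12.6 CPM in naive UON, 16.7 and 48.5 at 3 days after crush and 23.6 and 40.9 at 2 weeks. In MON it was 10.2 and 12.6 CPM in naive, 42.3 and 79.0 at 3 days and 19.5 and 15.4 at 2 weeks. In UON 6 weeks after beads, where the male pool was high in globins, it was 14.3 to 14.5 CPM. In MON 2 weeks after beads, where globins were low, it was 8.95 to 13.9 CPM. Both overlapped naive. The neutrophil list of 10 genes was 0.329 and 0.0942 CPM in naive UON, 1.83 and 2.14 at 3 days after crush and 13 and 0.449 at 2 weeks, when it was high in the female pool only. The monocyte and macrophage list of 10 genes was 38.4 and 38.1 CPM in naive UON, 75.4 and 184 at 3 days after crush and 67.9 and 209.9 at 2 weeks. In MON at 2 weeks after crush it was 255 and 108 CPM against 21.6 and 22.5 in naive, above naive where the globins lay below. The part of these cells, or of blood left in the tissue, in the globin levels was not tested.

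**Figure D3:**
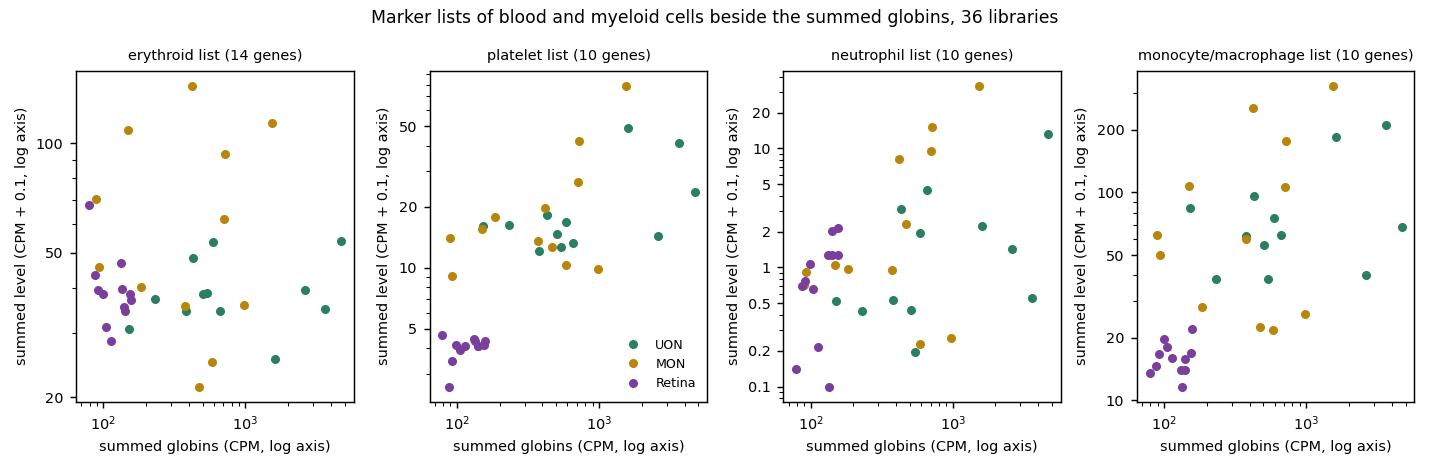
Summed CPM of the erythroid, platelet, neutrophil, and monocyte and macrophage marker lists (each plus 0.1, log axis) against summed globin CPM (log axis), 1 point per library, coloured by tissue. Retina libraries sit at 2.49 to 4.54 CPM of platelet markers and at most 157 CPM of globins, and the library with the most globin, 4708 CPM, has 53.7 CPM of the erythroid list, of which Tent5c is 51.4.

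Hmox1 gave the largest difference of any of the 9 genes. In MON it was 16.6 and 11.6 CPM in the naive female and male pools, 672 and 925 at 3 days after crush, and 79.0 and 38.8 at 2 weeks. No ranges overlapped among the 3 groups. The mean was 799 ± 179 CPM (SD, n = 2) at 3 days against 14.1 ± 3.5 in naive, a log2 rise of 5.97 ± 0.47 (SE, adjusted p = 0.00533, edgeR), and at 2 weeks the rise was 2.13 ± 0.39 (adjusted p = 0.0406). Without the female naive MON pool the 3-day value was 6.02 with an adjusted p of 0.0585, and the 2-week call was lost without either naive pool (adjusted p = 0.194 and 0.215) and with all 12 MON libraries in 1 fit (adjusted p = 0.236). The monocyte and macrophage list was also above naive, being 21.6 and 22.5 CPM in naive MON, 177 and 326 at 3 days and 255 and 108 at 2 weeks. Of that list Ms4a7 (7.47), Ccr2 (5.53) and Adgre1 (3.41) were called higher at 3 days, on the log2 scale. The neutrophil list was 0.127 and 2.24 CPM in naive MON, 14.9 and 33.5 at 3 days and 8.02 and 0.942 at 2 weeks. The microglia list of 7 genes ran from 681 to 781 CPM in naive MON, 1145 to 1282 at 3 days and 1548 to 2671 at 2 weeks. The part of these cells in the levels of Hmox1 and of Ftl1, described next, was not tested.

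In retina Hmox1 was 6.87 and 4.68 CPM in naive, 13.9 and 15.8 at 3 days after crush, and 6.43 and 5.06 at 2 weeks. The 3-day difference of 1.39 ± 0.27 was not called by edgeR (adjusted p = 0.326) and was called by DESeq2 (adjusted p = 0.00375). The response in MON exceeded that in retina by 4.53 ± 0.47 on the log2 scale at 3 days (adjusted p = 0.0073, edgeR), the only one of the 9 genes called in that test, where 0.882% of all genes were. DESeq2 called 2 of 9 there, Hmox1 and Slc40a1, against 7.67% of all genes. At 2 weeks edgeR called 0 of 9 (0.622% of all genes). An unadjusted p under 0.05 was found for 3 of 9, against 3088 of 25398 over all genes. DESeq2 called 3 of 9 against 5.64%, which were Hmox1 (2.11), Slc39a14 (1.23) and Tfrc (-1.26). In UON Hmox1 was 11.97 and 9.51 CPM in naive, 13.1 and 29.0 at 3 days and 27.3 and 32.7 at 2 weeks after crush.

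One bead library stood apart for Hmox1. In MON 3 days after beads the female pool was at 345 CPM and the male pool at 18.9, so the group spanned 18.3-fold, the widest of the 18 groups for any of the 9 genes. The log2 change of 3.07 ± 0.95 was not called (adjusted p = 0.483), while without the male pool it was 4.35 (adjusted p = 0.00648, edgeR). In the same female and male pools Ftl1 was 6687 and 2789 CPM, Pf4, a platelet chemokine also made by some macrophages, 15.6 and 3.13, and the neutrophil list 9.37 and 0.854. The female pool was higher in each, and the part of these cells in the Hmox1 level was not tested. At later times after beads MON was between 17.1 and 34.7 CPM. In retina Hmox1 was at 11.3 and 15.5 CPM in the female and male pools 3 days after beads, above naive as after crush. UON was also above naive, at 25.2 and 18.4 CPM at 3 days and 13.3 and 17.2 at 2 weeks after beads. At the other times after beads UON and retina overlapped naive. Hmox1 was not called in UON or retina after beads by either tool.

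**Figure D4:**
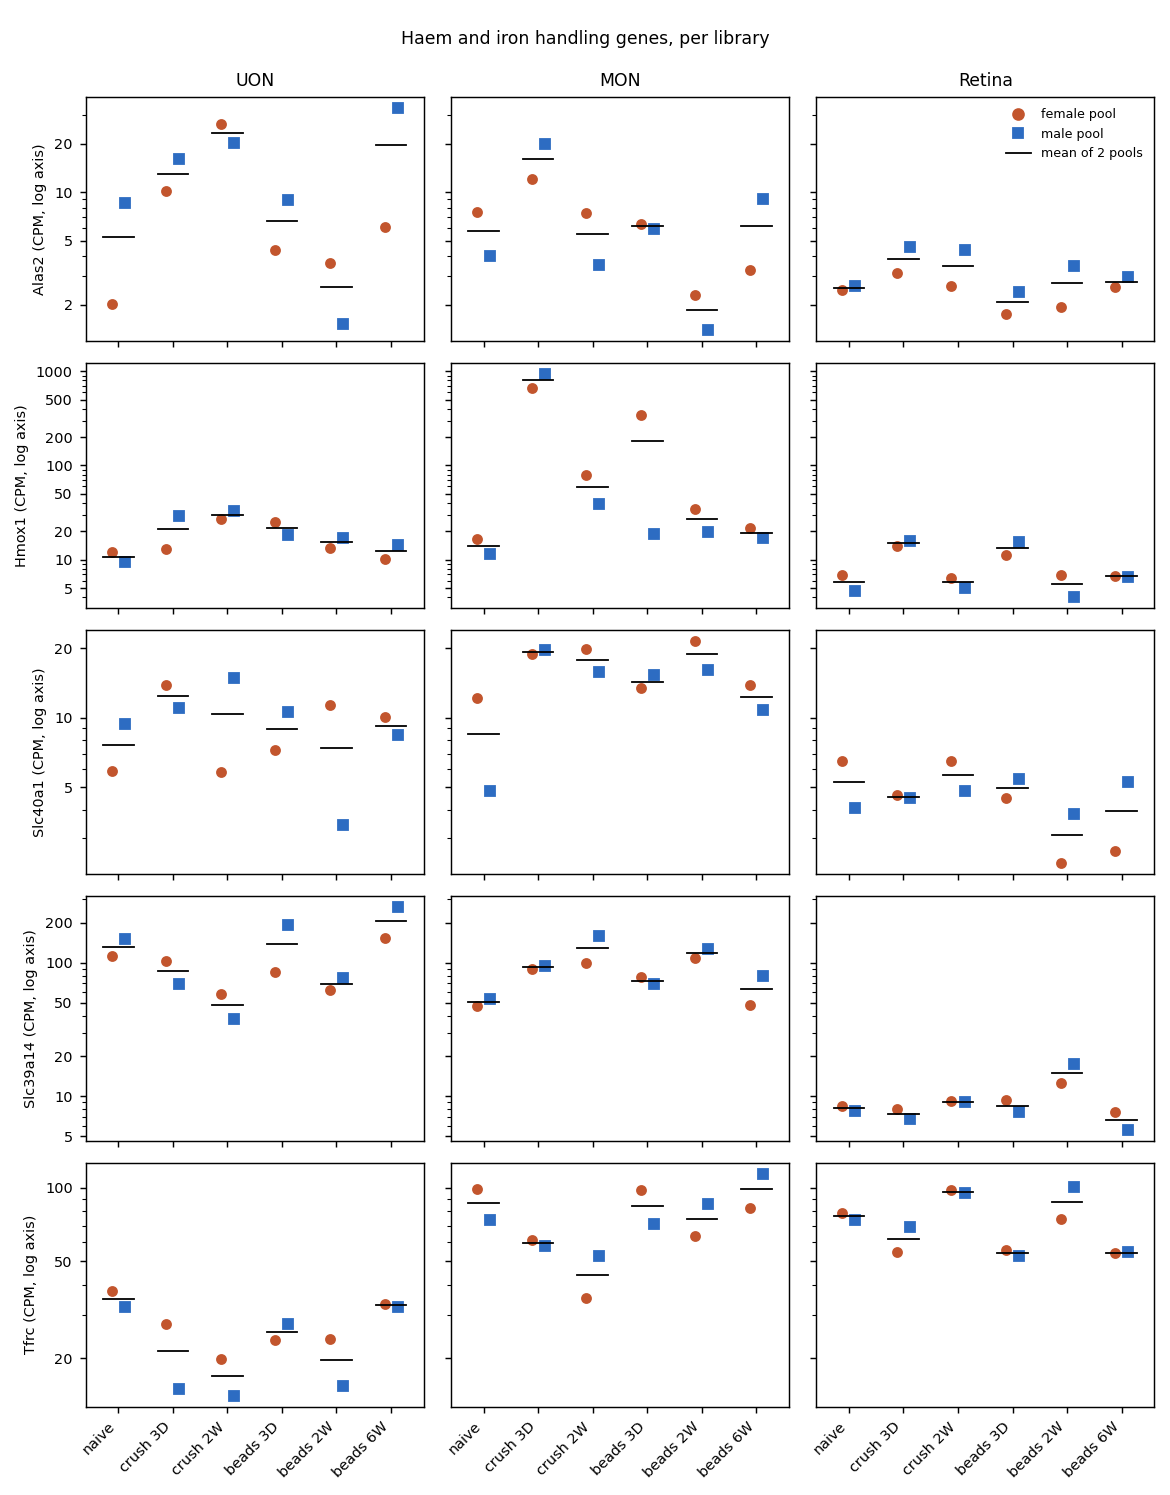
CPM (log axis, shared within a row) of Alas2, Hmox1, Slc40a1, Slc39a14 and Tfrc in each library, by tissue (columns) and condition, with points for the female and male pools and a line at their mean. Hmox1 in MON 3 days after crush is at 672 and 925 CPM, and in MON 3 days after beads the pools are at 345 and 18.9 CPM.

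The ferritin light chain Ftl1 was also higher in MON at 3 days. It was 1841 and 1917 CPM in naive MON and 8729 and 17240 CPM 3 days after crush, a rise of 2.86 ± 0.53 (adjusted p = 0.0307, edgeR). Its response exceeded that in retina by 2.68 (adjusted p = 0.0453). The heavy chain Fth1 was 28460 and 24220 CPM in naive MON and 13170 and 10540 at 3 days after crush, both below naive, and it was not called. Both carry the element printed above in the 5′ UTR.

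Slc40a1, the only known exporter of iron from cells, was 12.1 and 4.83 CPM in naive MON, 19.0 and 19.6 at 3 days after crush and 19.8 and 15.9 at 2 weeks. Both pools were above both naive pools at each time, and the male naive pool was the low one. The change at 3 days was 1.40 ± 0.40 and was not called by edgeR (adjusted p = 0.101), while DESeq2 called it (adjusted p = 0.0235). By edgeR it was also called with all 12 MON libraries in 1 fit (1.33), with no filter on low counts (1.41) and without the female 3-day pool (1.79), and it ran from 0.89 to 1.97 with 1 library left out. After beads MON was at 13.5 to 21.6 CPM at 3 days and 2 weeks, also above naive, with 1.24 ± 0.36 at 2 weeks (adjusted p = 0.403). In UON the level ran from 3.43 to 14.9 CPM and in retina from 2.34 to 6.50 CPM. It was not called in UON after beads or in retina, and no test is given for UON after crush.

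Slc39a14 took opposite positions in the nerve regions after injury. In MON it was 47.6 and 53.9 CPM in naive, 89.5 and 95.0 at 3 days after crush, and 99.3 and 158 at 2 weeks, all above naive. The rise was 1.41 ± 0.28 at 2 weeks (adjusted p = 0.0484, edgeR) and the 3-day change, 0.97 ± 0.28, was not called (adjusted p = 0.105). The 2-week call was lost without either naive MON pool (adjusted p = 0.219 and 0.239) and without the male crush pool (adjusted p = 0.0819). In UON, with no test, it was 112 and 150 CPM in naive, 103 and 69.0 at 3 days and 58.6 and 37.9 at 2 weeks, so that both later pools lay below naive and the mean was 2.72 times lower.

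The same order was seen 2 weeks after beads. MON was at 108 and 127 CPM, above naive, and UON at 62.7 and 76.7 CPM, below naive. The difference of the UON response from the MON response was -2.14 ± 0.39, which edgeR did not call (adjusted p = 0.692, unadjusted p = 0.000147) and DESeq2 did (adjusted p = 0.00123). At 6 weeks UON was at 153 and 261 CPM, above naive, and MON at 47.9 and 79.7. Retina stayed between 5.62 and 17.3 CPM, its highest pools being those 2 weeks after beads at 12.6 and 17.3.

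Tfrc lay below naive in both nerve regions after crush. In MON it was 99.0 and 73.9 CPM in naive, 61.1 and 57.9 at 3 days and 35.3 and 52.3 at 2 weeks, all below naive, with a change of -0.88 ± 0.30 at 2 weeks that was not called (adjusted p = 0.198, edgeR, and 0.0746 with DESeq2). Without the male 2-week pool it was called lower (-1.31, adjusted p = 0.0462, edgeR). Retina was at 54.59 and 69.15 CPM at 3 days against 79.0 and 73.6 in naive, also below naive. At 2 weeks it was at 98.1 and 94.9 CPM, so MON and retina then lay on opposite sides of naive. The difference of the responses at 2 weeks was -1.26 ± 0.31 (adjusted p = 0.119, edgeR, and 0.0218 with DESeq2). In UON, with no test, it was 37.6 and 32.5 CPM in naive, 27.7 and 14.96 at 3 days and 19.9 and 14.01 at 2 weeks. After beads UON was also below naive at 3 days (23.75 and 27.57 CPM) and 2 weeks (23.9 and 15.45). Retina was below naive 3 days (55.8 and 52.41 CPM) and 6 weeks (53.96 and 54.4) after beads. The other bead groups overlapped naive, and Tfrc was not called in any of them. The summed oligodendrocyte markers of MON were 63150 and 42940 CPM in naive and 15380 and 19520 at 2 weeks after crush. The part of these cells in the Tfrc level was not tested.

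Times and injuries were also compared directly in MON and retina. Between 2 weeks and 3 days after crush edgeR called 0 of 9 genes in MON (0.141% of all genes) with 5 at an unadjusted p under 0.05, and 0 of 9 in retina (0.0445%) with 2. Over all genes 3314 of 24738 in MON and 1242 of 24693 in retina had an unadjusted p under 0.05. Hmox1 was the 1 gene called by DESeq2 in both, against 6.67% of all genes in MON and 0.567% in retina, with a change of -3.96 ± 0.87 in MON (adjusted p = 0.0949 with edgeR and 0.00219 with DESeq2) and -1.42 ± 0.31 in retina (adjusted p = 0.321 and 0.00362). Crush against beads gave 0 of 9 at 3 days and at 2 weeks by both tools, with edgeR calling 0.0162% and 0.0485% of all genes in MON and 0.00810% and 0.113% in retina. The counts at an unadjusted p under 0.05 were 2 and 5 in MON and 1 and 1 in retina. Over all genes they were 2562 and 1857 of 24738 in MON and 1072 and 2005 of 24693 in retina. Hmox1 in MON was 2.73 ± 0.86 higher after crush than after beads at 3 days (adjusted p = 0.357, edgeR).

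Other genes of the pathway were read from lists of haem synthesis (11 genes), haem breakdown and transport (11), iron uptake (13), iron storage and export (7) and iron regulation (17). Between naive UON and MON the last 4 of these lists held 1, 2, 1 and 1 genes called higher in UON and 2, 0, 1 and 1 called lower. Cpox, a late enzyme of haem synthesis, was lower in UON by -2.66 ± 0.21, as was the haem transporter Slc48a1 by -1.65 ± 0.22 and Fth1 by -2.30 ± 0.31. Higher in UON were the ferroxidase Cp (2.28 ± 0.28), the ferric reductase Cybrd1 (1.91 ± 0.24) and Hfe (1.85 ± 0.25), which acts in iron sensing. The median change of the iron uptake list, 1.44, stood against -0.06 over all genes, and medians of the other 4 lists were between -0.06 and 0.09.

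In MON 3 days after crush the endosomal reductase Steap3 of the uptake list rose by 2.27 ± 0.37 (adjusted p = 0.021, edgeR). Ftl1 of the storage and export list rose as given above, and Cpox fell by 1.56 ± 0.28 (adjusted p = 0.0269, edgeR). Cpox is strongly expressed in naive MON, at 291 CPM against 46.9 in naive UON. At 2 weeks none of the 5 lists held a call in MON by edgeR, and DESeq2 called 1, 2, 2, 1 and 2 of their genes, where it called 8.93% of all genes. In retina and in UON after crush neither tool called a gene of the 5 lists at either time. Over all genes edgeR called 0.0221% and 0.313% in retina at 3 days and 2 weeks, and 0.00% and 0.0281% in UON. DESeq2 called 135 and 346 genes in retina and 210 and 515 in UON. With so few calls over all genes, the lack of calls in the lists says little about them. Among the markers, Tent5c rose in MON by 2.46 ± 0.29 at 3 days and 2.79 ± 0.29 at 2 weeks, and Pf4 rose by 5.10 ± 0.81 at 3 days (adjusted p = 0.0199, edgeR).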

How the data were processed

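The authors aligned reads to GRCm38 with HISAT2 2.2.1, assembled transcripts with StringTie 1.3.0 and deposited estimated counts per gene and transcript, together with FPKM per gene and library. Because 15 deposited FPKM values in 13 libraries lay just below 0, those columns were classed as a score, and the 15 values were set to 0. Each of the 36 count columns matched its own FPKM file. Counts were filtered with filterByExpr (count minimum 10, total minimum 15), scaled by TMM and tested with edgeR 4.0.16 (quasi-likelihood F test, Benjamini-Hochberg over all genes tested, R 4.3.3), fitted per tissue and injury with group and sex. Calls needed a log2 change beyond 1 in size and an adjusted p below 0.05. DESeq2 and limma were alternatives, limma on log2(FPKM + 1). The steps were tested on simulated data.

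The members, lists and tests were chosen with earlier results of these data known. Named genes are the 9 members, at most 4 genes per list and comparison with the largest change among those called and changed alike in both sexes, and the 8 genes most correlated with the globins. Some genes of the lists are not reported here. In the naive fit sex pairs the libraries, because the same mice gave all 3 tissues. Within a tissue the groups were different mice, and sex was only a covariate. The tests of a difference in response between tissues held group and sex. Pools of the same mice from different tissues were treated there as independent. Deviations of same-sex pools from their group means correlated above 0.1 in 3 of 18 tissue pairs (-0.05 to 0.23). With 2 pools per group, p-values measure only the spread between pools.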

Additional observations from a re-analysis of the deposited data

Results flagged for a closer look

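The difference between tissues in the response to crush was itself tested for MON against retina, and that to beads for UON against MON. Hmox1 stood out at 3 days after crush, where the MON response exceeded the retina response by 4.53 on the log2 scale (edgeR adjusted p = 0.0073), and in both tissues both pools lay above naive. The other 5 differences passed in DESeq2 and not in edgeR. For MON over retina these were Slc40a1 at 3 days after crush (1.52) and, at 2 weeks, Hmox1 (2.11), Slc39a14 (1.23) and Tfrc (-1.26). For UON over MON it was Slc39a14 at 2 weeks after beads (-2.14).

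For 3 more results a pair of tissues had every pool on opposite sides of naive, and the difference was not tested. Slc40a1 at 2 weeks after beads was above naive in MON and below it in retina, 1.92 apart on the log2 scale of group means. Slc39a14 at 2 weeks after beads was above naive in retina and below it in UON, 1.79 apart. Slc39a14 at 6 weeks after beads was above naive in UON and below it in retina, 0.95 apart.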

How the results depend on the processing

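The count of 14 calls between naive regions was 11 to 14 under 8 alternatives and 10 to 15 with each library left out. The 3 calls in MON after crush became 9 with no filter on low counts and 5 with DESeq2, were 3 under the other 6 alternatives, and ran from 0 to 9 with a library left out: 0 without the female and 1 without the male naive pool, 9 without the female pool at 3 days and 7 without the female pool at 2 weeks. The cause was not tested. DESeq2 gave 1 call in retina after crush and 1 in MON after beads against 0, and MON after beads ran from 0 to 1 with a library left out. No call appeared in UON or retina after beads. The fit with no replicate block left out the sex term, which pairs pools of the same mice only between naive regions. That fit gave 14, 3, 0, 0, 0 and 0 calls in the 6 families, as with the term. DESeq2 size factors in TMM's place, leaving globins out of the library size and summing the near copies changed none of 26 gene results. All counts of calls took each globin as its own gene, also where near copies were summed, although the copies are not independent. The summed globin change in UON after crush was 1.51 (log2) at 3 days and 3.44 at 2 weeks, ran from 0.61 to 2.25 and from 2.95 to 4.17 with a library left out, the highest of the latter without the male naive pool. No result changed direction. Where a group was left with 1 pool, that pool was assumed to vary like the other groups. With 2 pools per group, changes within the spread of the pools were not detectable.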
